A study of Mus musculus with 4 samples.

Results

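Deep bins are autosomal 200-bp windows of the mouse genome (mm9) in which whole-genome bisulfite sequencing (WGBS) gave more than 1000 CpG calls in each of 4 libraries. A call is 1 cytosine of a CpG read as methylated or unmethylated in 1 read. The members were chosen by their number of calls alone, so their depth is a description and was not tested, whereas the methylation level was not used by the rule. The rule held for 690 of 8312876 autosomal bins with any call, that is 0.00830% of them. Genomic DNA came from the colon of C57 mice, in which the knock-in Lgr5-EGFP-CreER allele makes the stem cell gene Lgr5 drive a green fluorescent protein. Lgr5-EGFP+ intestinal stem cells (ISCs) and EpCAM+, Lgr5-EGFP- differentiated epithelial cells were sorted from newborns (P0, postnatal day 0) and from pups on postnatal day 21 (P21), and each of the 4 groups had 1 library of pooled mice. No difference between groups could therefore be set against the spread between animals, and every value below compares libraries. Where 4 values stand in a row, the newborn libraries come first (ISC P0, differentiated P0), then those of the older mice (ISC P21, differentiated P21).

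Several kinds of repeated DNA are known to collect reads in this way, because an assembly holds only a few of their many copies. Major satellite is the AT-rich tandem repeat beside mouse centromeres and is normally densely methylated in somatic cells. Ribosomal RNA genes also lie in tandem arrays, in which methylated and unmethylated copies coexist. A level over such sequence is an average over all copies whose reads were placed there, and the copies cannot be told apart.

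The sequences of 5 bins (mm9, plus strand) show what kinds of DNA the deep bins hold, with each CpG in capitals. They are the deepest bin of all, chr2:98507201-98507400; the deepest bin of the largest cluster, chr9:3001401-3001600; the deepest ribosomal bin, chr17:39982401-39982600; the bin with the largest loss with age, chr11:3032201-3032400; and the bin with the largest difference between populations, chr2:98502801-98503000.
Deepest bin: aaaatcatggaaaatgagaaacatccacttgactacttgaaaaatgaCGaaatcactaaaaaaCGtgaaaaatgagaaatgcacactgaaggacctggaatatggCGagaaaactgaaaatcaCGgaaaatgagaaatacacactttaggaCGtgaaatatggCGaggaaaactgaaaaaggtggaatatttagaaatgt
Chromosome 9 cluster: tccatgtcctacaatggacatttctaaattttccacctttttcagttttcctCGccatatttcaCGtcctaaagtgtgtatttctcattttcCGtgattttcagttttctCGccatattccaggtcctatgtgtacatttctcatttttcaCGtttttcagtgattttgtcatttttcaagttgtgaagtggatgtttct
Ribosomal: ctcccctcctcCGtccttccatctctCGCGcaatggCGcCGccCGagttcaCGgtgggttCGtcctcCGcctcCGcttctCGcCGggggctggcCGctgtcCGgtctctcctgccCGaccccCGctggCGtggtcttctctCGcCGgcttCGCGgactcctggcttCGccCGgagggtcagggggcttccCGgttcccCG
Sfi1 exon: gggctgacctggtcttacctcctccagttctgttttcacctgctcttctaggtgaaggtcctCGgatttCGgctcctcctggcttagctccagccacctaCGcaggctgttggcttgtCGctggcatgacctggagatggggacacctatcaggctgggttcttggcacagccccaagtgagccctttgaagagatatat
Population difference: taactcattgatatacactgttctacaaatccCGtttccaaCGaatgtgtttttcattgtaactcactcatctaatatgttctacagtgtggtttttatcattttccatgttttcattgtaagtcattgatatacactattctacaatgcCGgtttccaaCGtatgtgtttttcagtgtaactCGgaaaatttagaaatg
The deepest and the chromosome 9 bin had a GC content of 34.5% and 35.5% and held 6 and 5 CpGs. The ribosomal bin had a GC content of 72.5% and 25 CpGs.

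The libraries held between 1011013849 and 1172882021 autosomal calls. A tested bin, defined as one that holds 2 or more reference CpGs and reaches 10 calls in every library, had a median of 55, 81, 58 and 68 calls, and there were 4074929 of them. CpGs within 500 bp of the start of the epithelial genes Epcam, Cdh1, Vil1 and Cdx2 were methylated at 0% to 1.99% in the 4 libraries, those of Lgr5 at 0.681% to 5.34%, and those of Ptprc and Cd3e, genes of blood cells, at 72.5% to 89.2%. The starts of the endothelial gene Pecam1 and the fibroblast gene Col1a1 were at 68.2% to 75.5% and 29.5% to 40.9%. These levels do not measure RNA.

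Deep bins clustered. When bins at most 1000 bp apart were joined, the 690 bins fell into 211 runs, of which 126 were single bins and 16 had at least 5 bins. Chromosome 9 held 202 deep bins and chromosome 11 held 134, followed by chromosome 1 with 45 and chromosome 17 with 41, while chromosomes 15 and 19 had 4 each. The 4 largest runs had 261 bins, 37.8% of all. Within 1 Mb of the first sequenced base of a chromosome, where mouse assemblies begin next to the centromere, lay 49.4% of the deep bins against 0.708% of all tested bins. CpG islands (CGIs, windows of 500 bp with at least 25 CpGs) covered at least 100 bp of 22.6% of the deep bins and of 3.83% of the tested bins. The deep bins had 6.93 CpGs on average against 3.64 in the tested bins, at nearly the same mean GC content (46.2% and 46.9%). Since calls are summed over every CpG of a bin, the rule itself favours bins with many CpGs. The excess of CpGs and of CGIs is therefore a description and was not tested. Protein-coding genes overlapped 47.1% of the deep bins and 48.1% of the tested bins, and genes of any type overlapped 70.9% and 50.6%.

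The description of these bins as repeat-like held for a part of them only. In 396 of the 690 bins at least 50% of the 32-mers occurred more than once in the mm9 assembly, but 110 bins had no repeated 32-mer at all. No bin was mitochondrial-like. For the account below the bins were placed in 4 sets, chosen after values were seen. In the satellite set (227 bins in 13 runs on 10 chromosomes), at least 20% of the 16-mers of a bin occur in the runs with the most calls, on chromosomes 2 and 9. The ribosomal set (32 bins) is a 30-bin run on chromosome 17 plus 2 bins on chromosome 6 that share its 16-mers. The Sfi1 block (110 bins) covers Pisd-ps1, Sfi1 and the near end of Drg1 on chromosome 11. The other 321 bins lie in 192 runs on all 19 autosomes. Of the 325 deep bins over a protein-coding gene, 103 were in the satellite set, 102 in the Sfi1 block and 120 among these other bins.

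The deep bins dominated the sum of calls. They took 64.5% (ISC P0), 51.3% (differentiated P0), 63.2% (ISC P21) and 53.0% (differentiated P21) of the autosomal calls. A single bin on chromosome 2 held 227253765, 212213255, 222314062 and 184247380 calls, which is 22.3%, 18.1%, 21.6% and 18.2% of each library, and the 6 deepest bins together held between 39.97% and 50.4%. At the other end the median deep bin had 3467, 5199, 3814 and 4829 calls. Since both strands and every CpG of a read are counted, and since PCR reads without molecular identifiers are not independent molecules, intervals given here cover counting error only.

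This weight moved the autosomal level. With every call counted equally, the level was 80.8% (ISC P0), 78.1% (differentiated P0), 80.8% (ISC P21) and 78.2% (differentiated P21). Without the 690 bins it was 74.8%, 71.6%, 74.1% and 71.1%. The sign of the difference with age turned with them. ISCs at P21 were 0.00777 points above ISCs at P0 with the deep bins and 0.704 points below without them (-0.704). Differentiated cells differed by 0.159 points with the deep bins and -0.481 without. The difference between populations kept its sign and grew, from -2.69 to -3.21 points at P0 and from -2.54 to -2.99 points at P21 (differentiated minus ISC). The mean of tested bins, in which each bin has the same weight, was 77.0% (ISC P0), 76.9% (differentiated P0), 76.7% (ISC P21) and 76.2% (differentiated P21). Leaving the deep bins out hardly changed its differences (for ISCs with age, -0.269001 points with them and -0.269025 without).

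**Figure D1:**
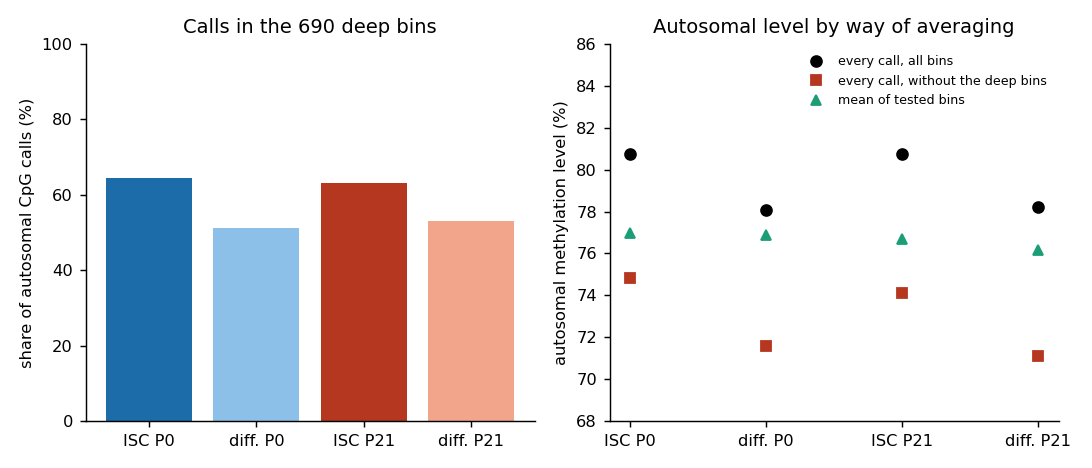
The left panel gives the share of autosomal CpG calls in the 690 deep bins for each of the 4 libraries, as bars from 0 to 100%. The right panel gives the autosomal methylation level in percent, on an axis from 68% to 86%, with every call counted (circles), with every call outside the deep bins (squares) and as a mean of tested bins (triangles); the squares lie 5.95 to 7.11 points below the circles.

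Levels of the deep bins ranged widely and differed by set. Over all 690 bins the mean level was 65.7% ± 25.1, 65.5% ± 25.3, 65.6% ± 24.8 and 65.0% ± 25.3 (SD over bins, not over animals), with medians of 76.1%, 76.1%, 75.9% and 75.6%. The median tested bin was at 85.7%, 85.5%, 85.9% and 85.3%. In ISCs at P0, 18.7% of the deep bins were below 40% methylation, against 9.69% of the tested bins, and 37.8% were above 80%, against 63.2%. Satellite bins had a mean of 78.00%, 78.4%, 78.4% and 78.5%. Ribosomal bins had a mean of 20.6%, 19.7%, 22.9% and 20.9%. The Sfi1 block had a mean of 69.3%, 68.4%, 66.3% and 65.0%. The remaining bins had a mean of 60.3%, 59.9%, 60.5% and 59.8%.

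**Figure D2:**
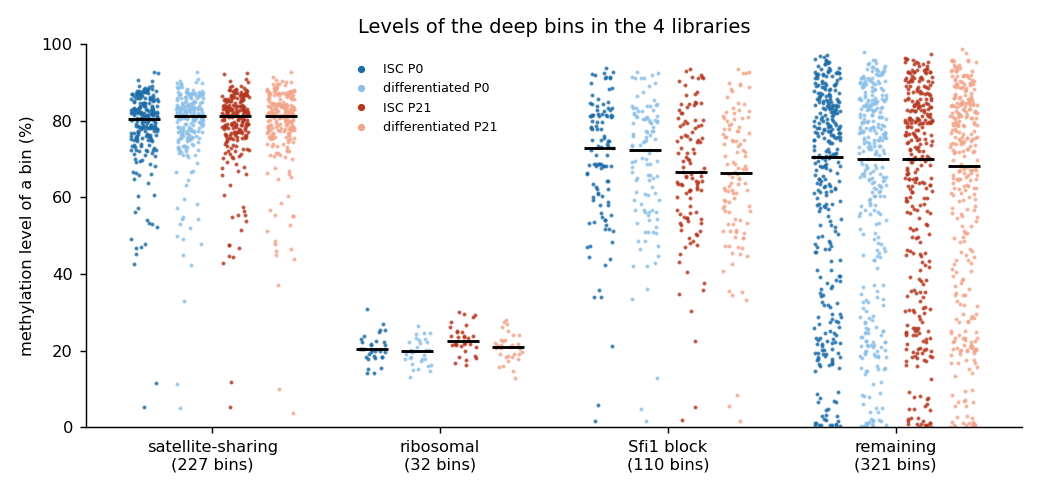
Each point is the methylation level (vertical axis, 0 to 100%) of 1 deep bin in 1 library, in the 4 sets on the horizontal axis, with ISC P0, differentiated P0, ISC P21 and differentiated P21 from left to right, and the black line is the median over bins. Satellite bins lie mostly near 80%, the ribosomal bins between 12.9% and 30.9%, and the remaining bins cover nearly the whole scale.

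The satellite set held 64.3%, 50.8%, 62.9% and 52.6% of the autosomal calls. Its run with the most calls, chr2:98501801-98507600, has 16 bins over the gene models Gm10801 and Gm10800 and between 410609791 and 508191536 calls. The pooled level of this run was 84.6%, 85.0%, 85.3% and 85.4%. A further run, chr9:3000001-3038400, begins at the first sequenced base of chromosome 9 and is the largest, with 190 bins over the lincRNA Gm16869 and several predicted genes. Over its middle 2200 bp the sequence matched itself best at a shift of 234 bp (71.2% of bases), the length of the mouse major satellite unit. Over the middle 2200 bp of the chromosome 2 run the best shift was 120 bp, at 33.4% of bases. That stretch leaves out the deepest bin of the run, for which no period was sought. Bins of these runs on chromosomes 2 and 9 belong to the set by definition, since their 16-mers define it. Which kind of repeat each bin of the set holds was not determined. The 190-bin run of chromosome 9 was methylated at 82.9%, 83.6%, 83.3% and 83.2%. The 3-bin runs chr9:35112801-35113400 and chr12:3109801-3110400, neither over a gene, have 2 bins each in the set and 1 outside it, and over all 3 bins they were at 81.8% to 82.7% and 85.6% to 86.8%. Between the highest and the lowest library lay 0.711 to 1.22 points in these 4 runs.

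Single CpGs of the satellite differed far more than libraries did. In the deepest bin, whose sequence is given above, the CpG at base 64 was methylated at 67.7%, 68.6%, 68.7% and 69.1%, while the CpG at base 48 was at 91.0%, 92.1%, 91.2% and 91.9%. In the chromosome 9 bin, 4 of the 5 CpGs were at 87.4% to 90.3% in all libraries. The CpG at base 152 had between 7101 and 9232 calls where each of the others had at least 1775678, and was at 71.9% to 72.8%.

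Changes in the satellite set were small. From P0 to P21 the mean over its 227 bins was 0.428 points higher in ISCs and 0.110 points higher in differentiated cells, and 176 and 144 bins were higher at P21. Of these higher bins 150 and 120 lie in the 190-bin run of chromosome 9. None of its 222 tested bins passed the rule for a call with age, for which the numbers are given below. The run chr6:103599001-103599400, in an intron of the neural adhesion gene Chl1, was among the 2 runs of at least 2 bins with the largest pooled gains in differentiated cells over ISCs at each age, with 79.6%, 86.9%, 80.3% and 86.9% in the 4 libraries. It also had 295862 and 50270 calls in the P0 libraries (ISCs, then differentiated cells), and 301554 and 81617 in those of P21. Its second bin was at 90.6% in ISCs and 90.0% in differentiated cells at birth, and its first bin at 78.3% and 86.8%.

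The ribosomal run, chr17:39979801-39985800, was methylated far below the satellite. Of its 30 bins 4 overlap AY036118, a pseudogene that RefSeq lists beside an 18S rRNA related gene (Rn18s-rs5), and the remainder overlap no gene of the annotation used. The nearest protein-coding gene, Pgk2, is 358163 bp away. The run held 797300, 2431251, 1012452 and 1961340 calls. Its pooled level, with 95% Wilson intervals, was 20.2% (20.2% to 20.3%) for ISC P0, 19.3% (19.2% to 19.3%) for differentiated P0, 22.7% (22.6% to 22.8%) for ISC P21 and 20.7% (20.6% to 20.7%) for differentiated P21. ISCs at P21 thus had the highest level and differentiated cells at P0 the lowest. Single bins lay between 12.9% and 30.9%. From P0 to P21, 26 of the 30 bins were higher in ISCs and 26 in differentiated cells, and 24 were higher in both. At P21, 26 bins were lower in differentiated cells than in ISCs, and at P0 16 were. No ribosomal bin reached a difference of more than 15 points, so none was called. In the bin shown above, the 25 CpGs had 11.9% to 31.1% methylation in ISCs at P0 and 13.2% to 38.1% in ISCs at P21.

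**Figure D3:**
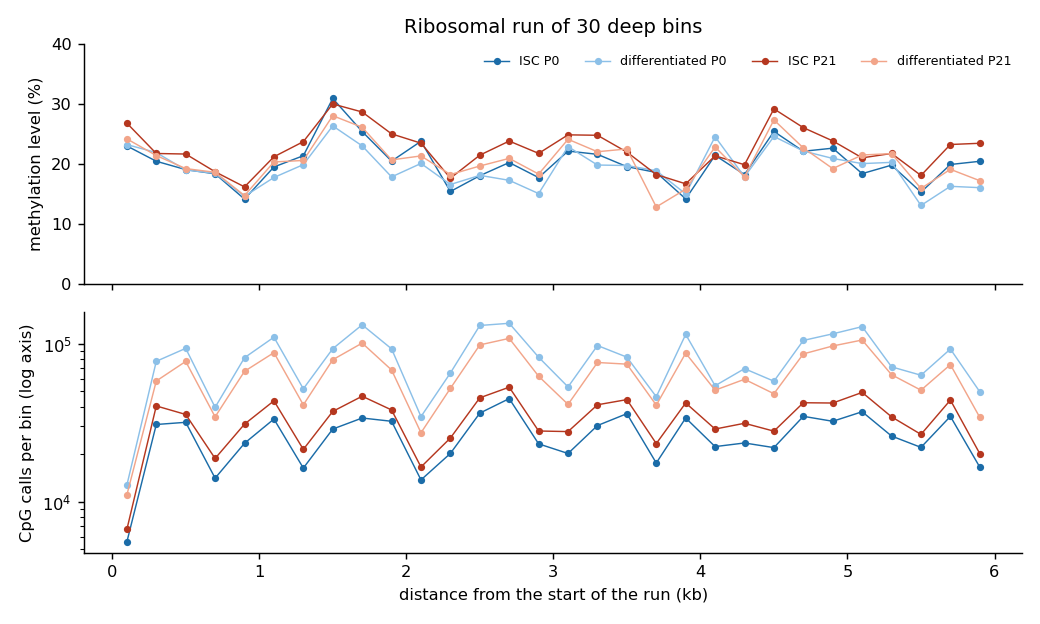
Methylation level in percent (top) and CpG calls per bin on a log axis (bottom) for the 30 bins of the ribosomal run, against the distance from its start in kb, with 1 line for each of the 4 libraries. The profiles rise and fall together along the run, ISCs at P21 lie highest in most bins, and differentiated cells have more calls than ISCs in every bin.

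Levels near those of the ribosomal run were also found elsewhere. Outside the ribosomal set, 31 runs (53 bins on 17 chromosomes) had a pooled level between 10% and 35% in ISCs at P0, with a median of 22.6%, 21.7%, 24.4% and 21.7% in the 4 libraries. These limits were chosen after values were seen, so the level at P0 is a description. Protein-coding genes overlapped 14 of these runs. Examples are chr16:57391401-57391800 in introns of Filip1l and 2610528E23Rik (20.5%, 18.5%, 21.0% and 20.5%) and chr9:123370801-123371400 over an exon of Lars2, the mitochondrial leucyl-tRNA synthetase (22.4%, 24.7%, 24.4% and 24.1%). All 31 runs had more calls in differentiated cells than in ISCs at P0, with a median ratio of 2.32, against 1.51 for the tested bins. This ratio was not matched for GC content. The 321 remaining bins, which include these runs, had a median ratio of 1.78, and of 0.985 relative to bins of like GC content.

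Among the deep bins, the Sfi1 block held the largest losses with age. Sfi1 encodes a centrin-binding protein of the centrosome, Pisd-ps1 is a pseudogene of a phosphatidylserine decarboxylase, and Drg1 encodes a GTP-binding protein. The block runs over 69 kb, chr11:3026801-3095800, and 54 of its 110 bins had no repeated 32-mer in the assembly. Its median depth, which the rule requires to be high, was 33.6, 36.8, 33.7 and 34.7 times that of tested bins of like GC content. From P0 to P21 its mean level went from 69.3% to 66.3% in ISCs (-2.98 points), and from 68.4% to 65.0% in differentiated cells (-3.39 points). Of the 110 bins 77 were lower at P21 in ISCs and 80 in differentiated cells. The 60 tested bins in the same span that were not deep had a median of 673 calls in ISCs at P0. Their mean differences were -1.42 and -2.58 points, and 34 and 38 of the 60 were lower at P21. Over the next 200 kb the 498 tested bins differed by -0.115 and -0.409 points, at a median of 64.5 calls in ISCs at P0. Of these 498 bins 238 and 235 were lower at P21. Without a test, 5 and 5 of the 110 deep bins lost more than 15 points in ISCs and differentiated cells. The same held for 3 and 3 of the 60 bins, and for 32 and 39 of the 498.

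The bin with the largest loss, chr11:3032201-3032400 in an exon of Sfi1, was methylated at 82.6% in ISCs and 80.5% in differentiated cells of newborns, and at 59.8% and 57.3% at P21. It rested on 3678, 7323, 4255 and 5075 calls, so that the 95% Wilson intervals were 81.3% to 83.8%, 79.6% to 81.4%, 58.4% to 61.3% and 56.0% to 58.7%. Both libraries of P21 lay below both of P0, but the bin was picked for this loss, so the intervals add no support to it. Each of its 4 CpGs, marked in the sequence above, was lower at P21 in ISCs (-22.0 to -23.3 points) and in differentiated cells (-21.9 to -24.3 points). The adjoining bin chr11:3032401-3032600, also in an exon of Sfi1, was called as well (-15.5 and -15.4 points). Another bin of the block, chr11:3042601-3042800, in an intron of Sfi1 and an exon of Gm11399, went from 84.3% and 83.9% at P0 to 63.4% and 63.5% at P21. The 13-bin run around it, chr11:3042401-3047800, had the largest pooled losses of ISCs among runs of at least 2 bins apart from a run on chromosome 8 described below, from 64.7% to 58.2%, and in differentiated cells it went from 63.9% to 56.3%. The 23-bin run chr11:3029401-3040200 went from 75.8% to 70.4% in ISCs and from 74.7% to 69.6% in differentiated cells. By contrast, the 18-bin run chr11:3075801-3087400, over Sfi1 and Drg1, went from 67.6% to 65.6% and from 64.7% to 63.6%.

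**Figure D4:**
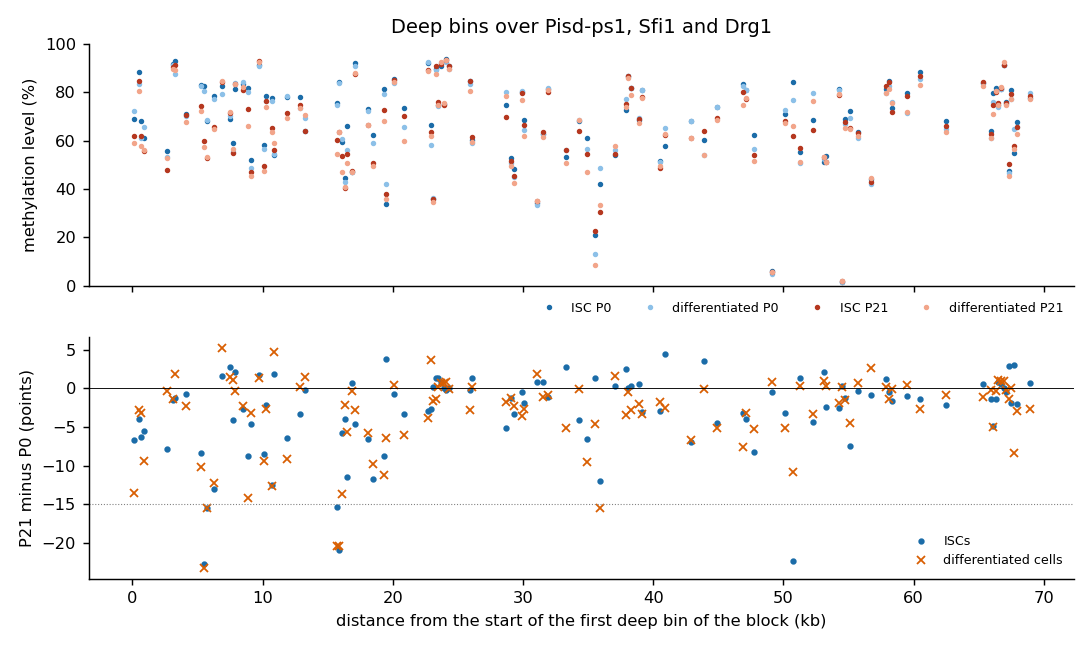
Methylation level of the 110 deep bins of the Sfi1 block in the 4 libraries (top, percent) and the difference P21 minus P0 in points for ISCs (dots) and differentiated cells (crosses; bottom), against the distance from the first bin in kb. The largest losses shared by both populations lie near the left end, further right 1 bin has -22.4 points in ISCs beside -10.8 in differentiated cells, and the dotted line marks 15 points.

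Sequence of the block recurs in a few deep bins elsewhere. Bins outside the block that share at least 20% of their 16-mers with it numbered 5, of which 2 lie in Pisd-ps2 on chromosome 17. The bin chr17:3081401-3081600 there was at 56.8% in ISCs and 56.6% in differentiated cells of newborns, and at 43.3% and 40.5% at P21. Its neighbour chr17:3081601-3081800 differed by -4.33 and -7.45 points. The other 3, in Gm2420 on chromosome 5 and in exons of the elongation factor gene Eef2 on chromosome 10, differed by 1.10 to 2.47 points in ISCs, and between -2.44 and 2.75 points in differentiated cells. Which copy a read of shared sequence came from cannot be told apart. The 4-bin run of Pisd-ps2, chr17:3081401-3082800, had the largest pooled loss in differentiated cells among runs of at least 2 bins, with 70.7%, 69.2%, 64.8% and 60.9%.

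CGIs at gene starts that are single-copy in the assembly were among the members too. At chr1:90173801-90174400, where Hjurp, the chaperone of the centromeric histone, and the cold-sensing channel gene Trpm8 meet, 3 adjacent bins without any repeated 32-mer were at 0.575% to 1.66% in all libraries. The 6 deep bins of the same neighbourhood outside the island ranged widely. The highest, chr1:90162601-90162800 in an exon of Hjurp, was at 91.1%, 89.3%, 90.1% and 88.5%, and the lowest, chr1:90179401-90179600 in an intron of Trpm8, at 46.5%, 46.0%, 51.9% and 45.8%. In all, 19 deep bins were below 5% in ISCs at P0. The run chr4:118219601-118221400, 9 bins without a gene, 2952 bp from the membrane protein gene Tmem125, had a repeat period of 44 bp and a level of 76.6%, 75.8%, 75.3% and 74.2%. Its 139075, 261422, 125495 and 215725 calls made it a deep run outside the satellite and ribosomal sets.

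The threshold cut through a continuous range of depth. Just inside it, with 1001 calls in the shallowest library, lay chr4:145722601-145722800 in the pseudogene Gm13241 (58.1%, 54.0%, 61.6% and 61.2%). With 1002 calls, chr18:54021801-54022000 in an exon of the casein kinase gene Csnk1g3 was unmethylated (0.499%, 0.462%, 1.16% and 0.0765%). With 1004 calls, chr3:108707401-108707600 in an exon of the splicing factor gene Prpf38b was at 95.3%, 95.7%, 96.0% and 95.8%. Just outside, with 999 calls, chr1:104524801-104525000 was at 22.4%, 15.8%, 20.7% and 18.4%, and with 996 calls chr17:28213201-28213400 in an exon of Tcp11 was at 63.2%, 59.0%, 72.4% and 61.3%. The 2940 bins with 501 to 1000 calls in the shallowest library had a mean level of 61.3%, 61.0%, 61.5% and 61.0%, and 49.5% of them lay in CGIs.

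Differences between libraries were tested bin by bin. Methylated and unmethylated calls of a bin were compared by Fisher's exact test (two-sided), and bins counted as called had an adjusted p below 0.05 (Benjamini-Hochberg over the 4074929 tested bins) and levels more than 15 points apart. The test compares 2 libraries and not the conditions. Every tested deep bin more than 15 points apart also passed the test (7, 6, 3 and 2 bins in the comparisons below), so the 15 points decided the calls. Of the 690 members 670 were tested, the other 20 having fewer than 2 reference CpGs.

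From P0 to P21, ISCs had 0 gains and 7 losses among the deep bins, against gains in 1.11% and losses in 1.51% of all tested bins. The 7 losses are 1.04% of the tested deep bins. Differentiated cells had 1 gain and 5 losses (0.149% and 0.746%), against 1.04% and 1.9% of all tested bins. At this limit the shares lay below the background, which is made of far shallower bins. At a limit of 5 points with the same test the order was the reverse, with 44 deep bins called in ISCs (6.57%) and 55 in differentiated cells (8.21%) against 2.94% and 3.81% of all tested bins, and 5.94% and 6.53% of the bins with 501 to 1000 calls. Beyond 30 points 0 deep bins were called in either population, against 1.23% and 1.08% of all tested bins. Without the test, 7.25% of the deep bins and 51.7% of all tested bins differed by more than 5 points in ISCs. The part of depth in these shares was not tested. At 15 points, gains and losses among bins with 501 to 1000 calls took 0.973% and 0.903% in ISCs and 0.590% and 0.660% in differentiated cells. Of the 7 losses in ISCs 4 were also called in differentiated cells, where they are 4 of 5, and all 4 lie in the Sfi1 block. Such shared losses made up 44.8% and 35.6% of the losses of all tested bins, and 57.7% and 78.9% of those of bins with 501 to 1000 calls, close to the deep bins. With a limit of 5 points and no test, 24 of the 690 bins were lower at P21 in both populations, and 3 were higher in both. Of the 24 bins, 22 lie in the Sfi1 block. Among the 670 tested deep bins alone, 22 (3.28%) were lower and 3 (0.448%) higher in both. The shares were 10.1% and 8.23% of all tested bins, and 1.39% and 2.33% of those with 501 to 1000 calls. The 2 age comparisons share no library, but the study's methods describe a single pooling of mice for each age, so both may compare the same animals and are not independent of each other.

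Over all deep bins the mean differed by -0.135 points in ISCs and -0.468 points in differentiated cells, against -0.269 and -0.709 in the tested bins. The median was 0.301 and 0.117 points against 0 and -0.0675. More bins were higher than lower at P21, 412 against 278 in ISCs and 373 against 317 in differentiated cells. The higher bins are 59.7% and 54.1% of the deep bins, against 48.8% and 47.8% of the tested bins. The excess lay in the satellite set, of which 77.5% and 63.4% were higher, while the other 463 bins had 51.0% and 49.5%. Most of the higher satellite bins, 150 in ISCs and 120 in differentiated cells, lie in the 190-bin run of chromosome 9. The copies in this run cannot be told apart, so its bins are not separate observations. From P0 to P21 its pooled level differed by 0.353 points in ISCs and -0.399 points in differentiated cells. Without this run 52.4% and 50.6% of the deep bins were higher. The sign of the mean differences depended on which bins entered and how they were weighted. They were 0.404 and 0.0858 points without the Sfi1 block, 0.624 and 0.305 with each call weighted equally, and -0.369 and -0.721 without the 190-bin run of chromosome 9. In ISCs the mean was also above 0 in bins with over 500 calls (0.175 points) and over 2000 calls (0.148 points).

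**Figure D5:**
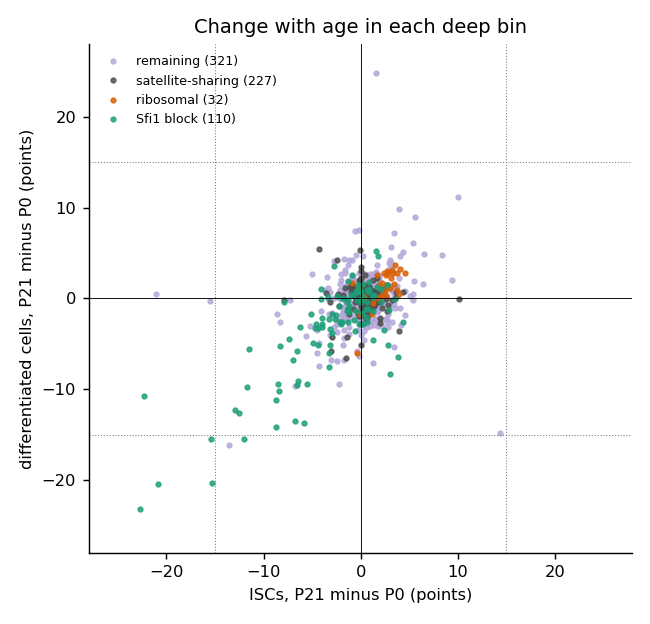
Each point is 1 of the 690 deep bins, with the difference P21 minus P0 in points in ISCs on the horizontal axis and in differentiated cells on the vertical axis, coloured by set, and dotted lines mark 15 points. Sfi1 block bins reach down to -22.8 and -23.2 points along the diagonal, 28 of the 32 ribosomal bins lie above 0 on each axis, and a few remaining bins lie far out on 1 axis only.

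Between populations fewer deep bins were called. At P0 differentiated cells had 1 gain and 2 losses relative to ISCs, against 0.323% and 0.26% of all tested bins. At P21 they had 1 gain and 1 loss, against 0.0904% and 0.134%. With so few bins these counts do not set the deep bins apart. At a limit of 5 points 50 and 43 deep bins were called (7.46% and 6.42%), against 0.718% and 0.269% of all tested bins and 4.48% and 2.78% of those with 501 to 1000 calls, so at this limit the share called was higher in the deeper sets. No deep bin was called beyond 30 points, against 0.208% and 0.0887% of all tested bins. The mean over all deep bins differed by -0.260 points at P0 and -0.593 points at P21, against -0.102 and -0.542 in the tested bins. The sign at P0 depended on the weights, since the difference was 0.0589 points with CpGs weighted equally and 0.189 with each call weighted equally.

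The calls between populations did not hold when the CpGs of a bin were weighted equally. The bin called at both ages, chr2:98502801-98503000 in an intron of Gm10801, was at 65.9% in ISCs and 42.4% in differentiated cells of newborns, and at 65.8% and 47.7% at P21. Its first 4 CpGs were at 83.4% to 93.5% in all 4 libraries, and the CpG at base 184 was at 0.475% to 0.641%. This last CpG had 164340 (ISC P0) and 105068 (differentiated P0) calls, beside 203444 and 43285 at the first. No single CpG of the bin was lower by more than 0.150 points in differentiated cells at either age. With each CpG weighted equally, the bin differed by 2.01 and 1.73 points in the other direction.

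The same weighting, added after the data were seen, separated the called bins. A bin was counted when its CpG mean differed by more than 15 points and its calls passed the Fisher's exact test above. No deep bin was then counted between populations at either age, against 0.512% of tested bins at P0 and 0.188% at P21. With age, 4 bins in ISCs and 5 in differentiated cells were counted, and 3 and 4 of them lie in the Sfi1 block. They are 0.597% and 0.746% of the tested deep bins, against 2.73% and 3.02% of the 3416333 tested bins that gave a value under this weighting. The other 2 were chr12:100883601-100883800, which overlaps no gene, with -16.0 points in ISCs and 1.01 in differentiated cells, and the Pisd-ps2 bin, with -11.6 and -15.004 points. In the chromosome 12 bin the strands differed (plus minus minus) by -36.6, -50.4, -20.0 and -38.6 points in the 4 libraries. A loss called in ISCs only, chr11:3077401-3077600 in an exon of Sfi1, came to -22.4 points by calls and -7.56 points over its 3 CpGs. A bin of chr8:19972801-19974000, the run with the largest pooled loss in ISCs (88.6% to 78.5%), went from 87.2% to 66.2% in ISCs by calls but by -2.91 points over its 3 CpGs. The gain of chr9:56108201-56108400 in an exon of C230081A13Rik, 68.8% to 93.6% in differentiated cells, came to 1.958 points over its 6 CpGs. In 39 of 670 deep bins a CpG below 5% and a CpG above 50% in every library stood in the same bin, and 25 of those bins lie in the Sfi1 block. The share of such bins among all tested bins was not determined.

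Other runs stood out by their pooled differences. The 2-bin run chr4:146649201-146649600, in introns of the lincRNAs Gm16889 and Gm17317, was at 60.9% and 65.8% in ISCs and at 54.7% and 61.5% in differentiated cells at P0 and P21. The 3-bin run chr6:47698001-47698600 had 46.8%, 43.6%, 48.4% and 51.3%. At chr8:19783801-19785200 over the pseudogene Gm10060, 4 bins were at 30.7% in ISCs and 19.5% in differentiated cells of newborns, and at 26.9% and 19.8% at P21. In an intron of Sfi1, chr11:3052601-3053000 was at 68.9% and 64.8% at P0 and at 70.3% and 64.4% at P21. An intron of Gm8257 held chr14:45289601-45291000, with 4 bins at 51.1%, 58.6%, 58.2% and 54.6%. The 2-bin run chr12:100883601-100884000 was at 34.3%, 25.98%, 28.8% and 25.9%. None of the runs overlapped a gene annotated as rRNA.

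Depth itself differed between populations by set. At P0 the median satellite bin had 0.667 times as many calls in differentiated cells as in ISCs, and at P21 0.781 times, while the tested bins had 1.51 and 1.21 times as many. Relative to tested bins of like GC content the ratios of the satellite set were 0.644 and 0.814. The median ribosomal bin had 2.99 and 1.91 times as many calls in differentiated cells, and 1.13 and 1.03 times relative to bins of like GC content. From P0 to P21, where the level of the ribosomal run was higher in both populations, the median ribosomal bin had 1.27 times as many calls at P21 in ISCs and 0.806 times as many in differentiated cells (1.13 and 1.02 times relative to bins of like GC content), against 1.05 and 0.837 times in the tested bins. In the Sfi1 block the median bin had 1.76 and 1.28 times as many calls in differentiated cells as in ISCs at P0 and P21. Relative to bins of like GC content these ratios were 1.06 and 1.04. From P0 to P21 the median bin of the block had 1.08 times as many calls in ISCs and 0.792 times in differentiated cells. Relative to bins of like GC content these ratios with age were 1.01 and 0.968. Whether this reflects the libraries or the number of copies cannot be told apart with 1 library a group, and its part in the levels was not tested.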

How the data were processed

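For each library the authors mapped paired-end WGBS reads of bisulfite-treated, PCR-amplified DNA to mm9 with Bismark and Bowtie, and deposited counts of all calls and of methylated calls for each CpG cytosine on each strand. Versions and the handling of duplicates are not given in the sources used. The deposited fraction equals the ratio of these counts, and levels were recomputed from the counts.

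Calls at all listed positions were added up in adjoining 200-bp bins. Between 0.503% and 0.728% of calls were at no reference CpG, and they were kept. Bins with at least 2 reference CpGs and 10 calls in all libraries were tested with a two-sided Fisher's exact test (numba 0.67.0), Benjamini-Hochberg adjusted. On simulated data with 100 deep bins changed by 20 points, 100% were called in each comparison, 4074929 bins being tested. The simulated calls were independent, unlike PCR reads, so this checks the calculation only.

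Genes came from GENCODE M1 on the same build. RefSeq (GRCm38) gave only the neighbour of AY036118, through which the chromosome 17 run was classed as ribosomal. Repeated 32-mers were counted over both strands of mm9. Named runs were the 6 with the most calls, the 4 with the most bins, and, of runs with at least 2 bins, the 2 largest gains and losses in pooled level per comparison; any run over an rRNA gene would have been added. Single bins were named when called, shown or nearest the threshold, and runs near 20% methylation, the Hjurp bins and the Pisd-ps2 bins after their values were seen. The members and lists were chosen with earlier results of these data known. Alternatives were other depth limits and thresholds, reference CpGs only, shifted bins, thinned calls, subsets of bins and other weights.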

Additional observations from a re-analysis of the deposited data

Results flagged for a closer look

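Bins whose difference had opposite signs, by more than 5 points each, in the contrasts set side by side were looked at again. These differences between contrasts were not tested, since each group has 1 library. At chr14:45289601-45289800, in an intron of Gm8257, the change with age was 14.4 points in ISCs and -14.8 points in differentiated cells, so the changes lay 29.2 points apart, and the differences between populations, 17.2 points at P0 and -12.0 at P21, lay 29.2 points apart as well, as the same 4 levels give both. Over the 3 CpGs of the bin weighted equally the changes with age were 3.77 and -1.36 points. At chr8:19972801-19973000 differentiated cells differed from ISCs by -5.71 points at P0 and 15.8 at P21 (-21.5 between them), and by -5.37 and -2.10 points over its 3 CpGs. At chr9:56108201-56108400 they differed by -9.72 and 13.5 points (-23.2 between them), and by -2.34 and -0.175 points over its 6 CpGs.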

How the results depend on the processing

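No paired analysis was possible because each of the 4 comparisons sets 1 library against 1, and for the same reason no library could be left out. Of 101 alternative values, 37 stayed within the counting interval of the difference or within 1.5 times the count, and 64 moved. Values follow the order ISCs with age, differentiated cells with age, populations at P0 and populations at P21. The number of deep bins was 3630 above 500 calls, 401 above 2000 and 289 above 5000. The mean difference in points was 0.175, -0.0464, -0.269 and -0.491 above 500 calls, 0.148, -0.310, -0.0386 and -0.497 above 2000 calls, -0.103, -0.489, -0.0972 and -0.484 with shifted bins, 0.342, 0.0635, -0.148 and -0.427 in multi-copy and ribosomal bins only, and 0.624, 0.305, 0.189 and -0.129 with each call weighted equally. Added after the data were seen, it was 0.404, 0.0858, -0.144 and -0.463 without the Sfi1 block, -0.369, -0.721, -0.520 and -0.872 without the 190-bin run, and -0.157, -0.600, 0.0589 and -0.385 with CpGs weighted equally. The mean differences with age thus took either sign in ISCs and in differentiated cells, as did that between populations at P0. Called bins numbered 61, 42, 25 and 12 above 500 calls, 4, 4, 1 and 1 above 2000 calls, 5, 5, 2 and 1 with reference CpGs only, 9, 10, 3 and 1 with shifted bins, 7, 6, 2 and 1 without the run with the most calls, 1, 1, 1 and 1 in multi-copy and ribosomal bins only, 7, 6, 2 and 1 with calls thinned to 1000, 2, 2, 3 and 2 without the Sfi1 block and 4, 5, 0 and 0 with CpGs weighted equally. Beyond 30 points there were 0, 0, 0 and 0, against 1.23, 1.08, 0.208 and 0.0887% of all tested bins, and beyond 5 points 44, 55, 50 and 43, against 2.94, 3.81, 0.718 and 0.269%. With reference CpGs only the deep bins held 64.3, 51.1, 63.0 and 52.8% of the calls. Precision by counting is high in these bins, but pooled animals, PCR copies and copies of a repeat are not separated.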

Other observations

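The same depth limit was passed by 68 bins of chromosome X and 26 bins of chromosome Y, which were left out of all comparisons. Their median level (ISC P0, differentiated P0, ISC P21, differentiated P21) was 77.8%, 76.3%, 78.1% and 78.2% on chromosome X, and 63.9%, 61.2%, 59.9% and 61.1% on chromosome Y. The strands of a deep bin were read unequally. The plus strand gave a median of 27.05%, 25.8%, 28.4% and 25.8% of the reference CpG calls. Where both strands had at least 100 calls, the median difference between their levels was 3.76, 5.04, 3.74 and 4.87 points in size. It was more than 15 points in 45 of 513, 73 of 514, 44 of 523 and 63 of 492 such bins.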
